A study of Homo sapiens with 6 samples.

Results

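The genes described here are 30 genes of the adrenergic, sympathetic neuroblast-like state of neuroblastoma, measured in the human neuroblastoma line SK-N-SH after 6 h with dopamine. They were chosen by symbol, as a list of names and not by a threshold on values, and comprise transcription factors and their cofactors, a pair of receptor tyrosine kinases, secretory granule and synaptic vesicle proteins, and proteins of neuronal growth and RNA binding. The deposited table holds 26789 genes and has a row for 29 of the 30, each symbol occurring once. INSM1 was not analysed here. Of the 29, 26 had a mean of 1 FPKM or more over all samples and entered the test, among 11791 tested genes in all, and DACH1, ALK and LMO3 lay below that filter. SATB1 passed it only because of its DA+ samples.

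The DA+ group was SK-N-SH cells labelled wild type and treated with dopamine for 6 h (n = 3), and the DA- group was the same cells in medium alone for that time (n = 3). The dose stands in the labels as 40 M, probably with a prefix missing, and is given no reading. The labels of all 6 samples say SK-N-SH, but the design text speaks of its subline SH-SY5Y. No label says that the replicates came from separate cultures, so a p-value reflects sample-to-sample spread that may be technical. Values are FPKM, fragments scaled to gene length and library total. Library totals recovered from the table ran from 19399000 to 24232000 fragments, and the correlation of log2 values between samples ran from 0.957 to 0.994.

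Neuroblastoma arises from the sympathoadrenal lineage of the neural crest. Its adrenergic state is maintained by transcription factors, among them HAND2 and GATA3, that bind each other's enhancers, and these cells carry the machinery of catecholamine storage and release. A second, mesenchymal state is marked by factors such as PRRX1 and by matrix genes. SK-N-SH is known as a line in which neuroblast-like and substrate-adherent cells occur side by side, so in these bulk samples a lower share of cells of a type and less RNA per cell cannot be told apart.

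Promoter sequence is shown for the 3 most abundant identity genes with a single promoter entry and for SCG3, a granule gene that also has 1 entry and is among those with the smallest p. RefSeq (GRCh38.p14) had promoter entries for 20 of the 30 genes, 12 of them with 1 entry. The windows are the 250 bases before the start, 5′ to 3′ on the gene's strand, at chr4:173530230-173530479, minus strand for HAND2, chr11:72244177-72244426, minus strand for PHOX2A, chr14:92922900-92923149, plus strand for CHGA and chr15:51681253-51681502, plus strand for SCG3. Capitals mark matches on either strand to the E-box CANNTG, bound by the HAND class, to AGATAA, bound by GATA factors, to the core promoter element TATAAA, to the cAMP response element TGACGTCA or to the homeodomain core TAATTA.
HAND2: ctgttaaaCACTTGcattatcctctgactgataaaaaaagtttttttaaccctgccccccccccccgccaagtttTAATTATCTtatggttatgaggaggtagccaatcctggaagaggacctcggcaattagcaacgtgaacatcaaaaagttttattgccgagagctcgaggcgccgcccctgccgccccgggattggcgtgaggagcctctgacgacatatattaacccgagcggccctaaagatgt
PHOX2A: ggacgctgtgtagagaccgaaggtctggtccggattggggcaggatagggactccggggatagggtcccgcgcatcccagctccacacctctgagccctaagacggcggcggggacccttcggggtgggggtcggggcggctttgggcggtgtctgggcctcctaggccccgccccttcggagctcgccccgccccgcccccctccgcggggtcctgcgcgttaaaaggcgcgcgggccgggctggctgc
CHGA: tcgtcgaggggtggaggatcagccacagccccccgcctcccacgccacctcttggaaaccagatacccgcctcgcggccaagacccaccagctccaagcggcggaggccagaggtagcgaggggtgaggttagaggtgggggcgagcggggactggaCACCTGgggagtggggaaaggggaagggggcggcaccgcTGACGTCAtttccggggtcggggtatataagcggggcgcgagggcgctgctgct
SCG3: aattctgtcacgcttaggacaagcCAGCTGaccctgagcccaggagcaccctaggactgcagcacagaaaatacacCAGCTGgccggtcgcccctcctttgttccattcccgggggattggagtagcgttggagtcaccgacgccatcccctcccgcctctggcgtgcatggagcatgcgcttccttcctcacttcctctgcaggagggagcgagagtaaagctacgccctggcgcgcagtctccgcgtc
The HAND2 window held 1 E-box and, further in, a homeodomain core and a GATA site that overlap in one run of capitals. The CHGA window held 1 E-box and 1 cAMP response element that begins 54 bases before the start, and the SCG3 window held 2 E-boxes. The PHOX2A window held none of the motifs and was the richest in GC, at 73.2%, against 49.6% in HAND2, 68.8% in CHGA, 61.6% in SCG3 and a median of 58.0% over 35116 windows. An E-box stood in 54.5% of the 44 windows of identity genes and in 61.8% of all windows, a GATA site in 6.82% and 9.17%, a TATA box in 4.55% and 10.7%, a homeodomain core in 11.4% and 4.35%, and a cAMP response element in 2.27% and 1.65%. Several of the 44 windows belong to the same gene, and a match is a run of letters, not a bound site.

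In DA- cells the identity genes spanned levels from SCG2 at 377.7 ± 49.8 FPKM to LMO3, which was listed at 0 in 2 of 3 samples (SD, n = 3 here and below). Their median level was 6.54 FPKM, against 0.547 FPKM over all genes in the table. In DA- cells 11 of the 29 stood at 10 FPKM or more, 14 between 1 and 10, and 4 below 1. Along the order of DA- means, 13 of 28 neighbouring genes had ranges that did not overlap, among them SCG2 over HAND2, HAND2 over PHOX2A and PHOX2A over TBX2, and 15 neighbours could not be told apart by their ranges, such as TBX2 and CHGA or GATA3 and GATA2.

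**Figure D1:**
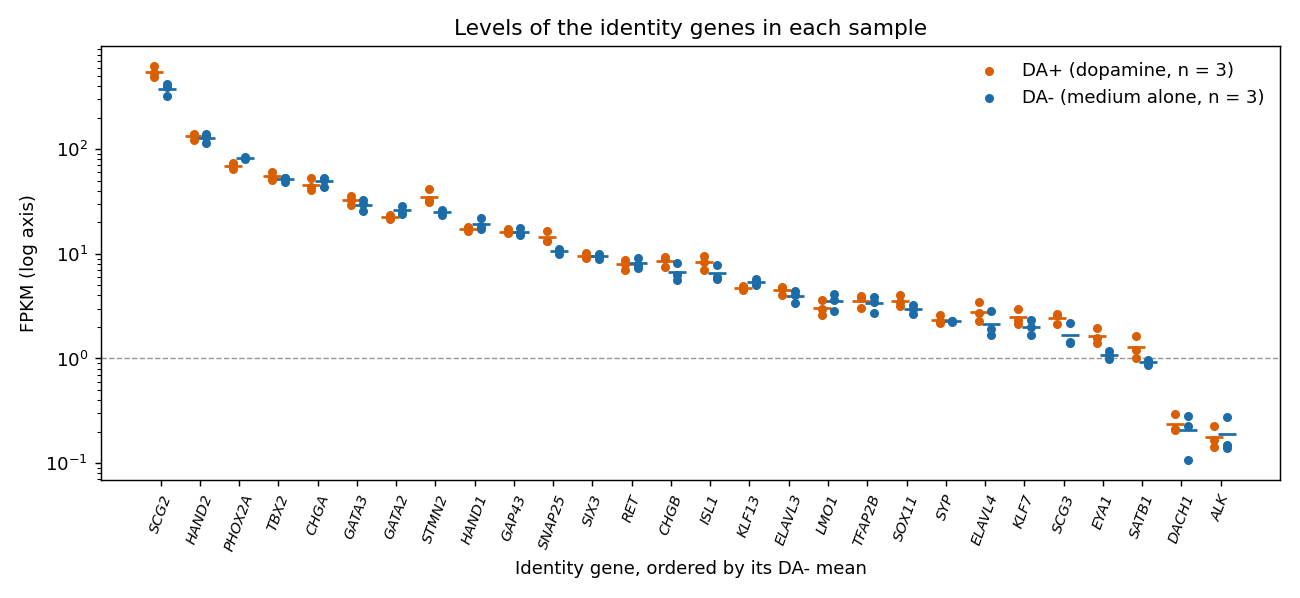
FPKM of 28 identity genes in each sample, on a log axis, ordered by DA- mean. Points are samples, short bars are group means, the dashed line is 1 FPKM, and LMO3, at 0 in several samples, is left out. SCG2 leads in both groups, and the DA+ and DA- points of most genes overlap.

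No identity gene passed an adjusted p of 0.05 between DA+ and DA- cells (limma, two-sided, Benjamini-Hochberg over all tested genes), in a comparison that called 12 of 11791 genes (0.102%), 10 of them higher (0.0848%) and 2 lower (0.017%). The smallest adjusted p among the identity genes was 0.11. At an unadjusted p under 0.05 lay 8 of the 26, 6 higher (SCG2, STMN2, SNAP25, EYA1, SCG3 and CHGB) and 2 lower (PHOX2A and GATA2). That is 30.8% of them against a background of 32.5% over all tested genes (24.4% higher and 8.05% lower), so the share is not a result about these genes. The DA+ and DA- values did not overlap in 8 of the 26 (5 higher, 3 lower), against a background of 38.4% (24.4% higher, 14.1% lower). The log2 fold changes ran from -0.25 to 0.54 with a median of 0.12, against 0.08 over all tested genes, and 19 of 26 had a higher mean in DA+ cells, against 60% of all tested genes. SATB1, which passed the filter only through its DA+ samples, is counted in the 5 and in the 19. The half-width of the 95% interval of the log2 fold change ranged from 0.17 to 0.43, so shifts of this size in either direction were not resolved.

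**Figure D2:**
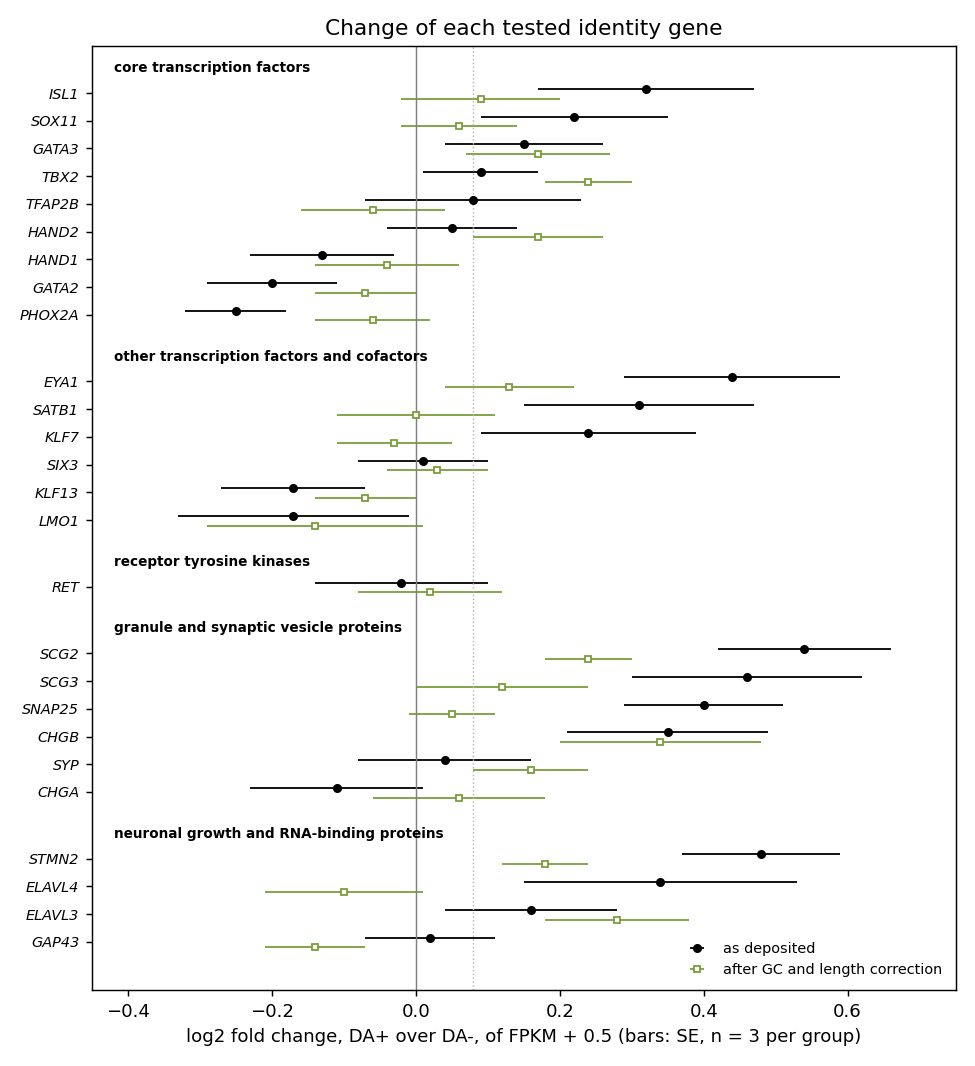
log2 fold change (DA+ over DA-) of the 26 tested identity genes, grouped by role, with FPKM as deposited (filled circles) and after correction for GC content and length (open squares). Bars are SE, the solid line is 0 and the dotted line is the median of all tested genes, 0.08. As deposited the genes run from SCG2 at 0.54 to PHOX2A at -0.25, and after the correction from 0.34 to -0.14.

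Of the core transcription factors, HAND2, PHOX2A and TBX2 had the highest DA- means. HAND2 (ENSG00000164107.7, hg19 chromosome 4, 174446120 to 174451380), which encodes a helix-loop-helix factor of sympathetic neurons, had 139.7, 121.3 and 135.5 FPKM in DA+ cells, against 130.9, 114.2 and 138.9 FPKM in DA- cells. The groups overlapped throughout, and the log2 fold change was 0.05 (95% interval -0.16 to 0.26, adjusted p = 0.734 by limma). Median-of-ratios scaling turned it to -0.04. Its paralogue HAND1 had 16.5, 17.8 and 18 FPKM in DA+ cells, against 18.5, 17.1 and 22 FPKM in DA- cells, which also overlapped (log2 fold change -0.13, adjusted p = 0.374 by limma). HAND2 exceeded HAND1 by 6.81 to 8.49 times in DA+ cells and by 6.32 to 7.06 times in DA- cells.

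PHOX2A (ENSG00000165462.5, hg19 chromosome 11, 71950121 to 71956708), a homeodomain factor that drives noradrenergic differentiation, had 73.6, 65.2 and 69.7 FPKM in DA+ cells, against 84.6, 80.3 and 83.2 FPKM in DA- cells. All DA+ values lay below all DA- values, and the fitted log2 change was -0.25 (SE 0.07, unadjusted p = 0.00764, adjusted p = 0.11 by limma). After the GC and length correction it was -0.06 (SE 0.08, adjusted p = 0.734 by limma).

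The zinc finger genes GATA2 and GATA3 differed in sign. GATA2 (ENSG00000179348.7, hg19 chromosome 3, 128198270 to 128212028) had 23.5, 21.7 and 22.5 FPKM in DA+ cells, against 25.6, 24.1 and 28.6 FPKM in DA- cells, with no overlap (log2 fold change -0.20, SE 0.09, adjusted p = 0.141 by limma). GATA3 (ENSG00000107485.11, hg19 chromosome 10, 8095567 to 8117161) had 32.6, 29.3 and 35.4 FPKM in DA+ cells, against 30.1, 25.4 and 32.5 FPKM in DA- cells, with overlap (log2 fold change 0.15, SE 0.11, adjusted p = 0.35 by limma). The ratio of GATA3 to GATA2 within a library, which no library scaling can move, was 1.39, 1.35 and 1.57 in DA+ cells and 1.18, 1.05 and 1.14 in DA- cells. The DA+ ratios all lay above the DA- ratios. The ratio was chosen after the values were seen and has no test. After the GC and length correction GATA3 stood at 0.17 and GATA2 at -0.07 on the log2 fold change scale.

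The T-box repressor gene TBX2 had 60.4, 53.7 and 51.0 FPKM in DA+ cells, against 53.2, 48.7 and 53.1 FPKM in DA- cells, and the groups overlapped. Its log2 fold change was 0.09 as deposited (adjusted p = 0.468 by limma) and 0.24 (SE 0.06, adjusted p = 0.156 by limma) after the GC and length correction. The LIM-homeodomain gene ISL1, needed for sympathetic neurons, averaged 8.27 ± 1.32 FPKM in DA+ cells and 6.54 ± 1.14 FPKM in DA- cells (log2 fold change 0.32, adjusted p = 0.161 by limma, and 0.09 after the correction). SOX11, a neuroblast SOX factor gene, averaged 3.55 ± 0.462 FPKM in DA+ cells and 2.98 ± 0.304 FPKM in DA- cells (log2 fold change 0.22, adjusted p = 0.249 by limma, and 0.06 after the correction). TFAP2B, an AP-2 factor gene of the sympathetic lineage, averaged 3.58 ± 0.498 FPKM in DA+ cells and 3.36 ± 0.585 FPKM in DA- cells, and its sign turned after the GC and length correction (-0.06). For none of these 4 genes did the groups separate. Of the 9 core factors with a row, 2 had an unadjusted p under 0.05, both lower, against 8.05% lower over all tested genes, and the median log2 fold change was 0.08, the same as over all tested genes. After the correction 1 had such a p, TBX2, which was higher, none was lower, and the median was 0.06. The background was then 8.37% higher and 8.45% lower over all tested genes.

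Among the other transcription factors and cofactors, SIX3, a homeobox gene, averaged 9.53 ± 0.473 FPKM in DA+ cells and 9.47 ± 0.534 FPKM in DA- cells, with 95% limits of the fold of 0.876 and 1.15. The Krüppel-like factor genes stood on opposite sides of 0 as deposited. KLF13 averaged 4.74 ± 0.203 FPKM in DA+ cells and 5.39 ± 0.375 FPKM in DA- cells, with all DA+ values below all DA- values (log2 fold change -0.17, adjusted p = 0.257 by limma), whereas KLF7 averaged 2.47 ± 0.437 FPKM in DA+ cells and 2.0 ± 0.329 FPKM in DA- cells, with overlap (0.24, adjusted p = 0.278 by limma). The KLF7 sign turned after the GC and length correction (-0.03).

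EYA1 (ENSG00000104313.13, hg19 chromosome 8, 72109668 to 72274467), a phosphatase and transcriptional cofactor, had 1.58, 1.4 and 1.97 FPKM in DA+ cells, against 1.17, 1.09 and 0.981 FPKM in DA- cells. All DA+ values were higher, with a fitted log2 change of 0.44 (SE 0.15, unadjusted p = 0.0152, adjusted p = 0.114 by limma), and of 0.13 (SE 0.09) after the correction. The chromatin organiser gene SATB1 averaged 1.28 ± 0.311 FPKM in DA+ cells and 0.922 ± 0.0544 FPKM in DA- cells, also without overlap (log2 fold change 0.31, adjusted p = 0.198 by limma, and 0.00 after the correction). SATB1 passed the filter only through its DA+ samples, so its separation and direction are not support for a change. LMO1, a LIM-only cofactor and neuroblastoma oncogene, averaged 3.07 ± 0.539 FPKM in DA+ cells and 3.51 ± 0.622 FPKM in DA- cells (log2 fold change -0.17, adjusted p = 0.453 by limma). Its relative LMO3 was listed at 0 in 3 of the 6 samples, and its 3 nonzero values, multiplied by the library totals, lay within a ratio of 1.01 of each other. DACH1, a corepressor gene, averaged 0.237 ± 0.0502 FPKM in DA+ cells and 0.206 ± 0.0906 FPKM in DA- cells.

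Of the receptor tyrosine kinases, RET, the glial cell line-derived neurotrophic factor receptor, averaged 7.97 ± 0.860 FPKM in DA+ cells and 8.09 ± 0.974 FPKM in DA- cells (log2 fold change -0.02, 95% interval -0.28 to 0.24). ALK, which is mutated or amplified in part of neuroblastomas, lay below the filter at 0.177 ± 0.0423 FPKM in DA+ cells and 0.189 ± 0.0751 FPKM in DA- cells, and its groups overlapped.

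The granule and vesicle genes held most of the higher values, with 4 of 6 at an unadjusted p under 0.05, all higher. The background was 24.4% higher over all tested genes, and the median log2 fold change of the 6 was 0.38. The groups separated upward in only 2 of the 6 (33.3%), SCG2 and SNAP25, against 24.4% of all tested genes. All 4 with such a p lay below the set's median GC content of 53.0% (SCG2 43.0%, SCG3 41.9%, SNAP25 39.6% and CHGB 52.3%). After the GC and length correction 2 of 6 had such a p, against 8.37% higher over all tested genes, and the median was 0.14. SCG2 (ENSG00000171951.4, hg19 chromosome 2, 224461658 to 224467221), which encodes the granin secretogranin II, had 488.1, 533.4 and 628.1 FPKM in DA+ cells, against 418.5, 392.4 and 322.2 FPKM in DA- cells. The groups did not overlap, and the samples numbered 3 were the extremes of both. The difference was 1.46-fold (95% limits 1.2 and 1.77, unadjusted p = 0.00167, adjusted p = 0.11 by limma). CHGA, the chromogranin A gene (ENSG00000100604.8, hg19 chromosome 14, 93389425 to 93401638), had 53.6, 40.4 and 43.3 FPKM in DA+ cells, against 53.2, 43.2 and 51.1 FPKM in DA- cells. Here the groups overlapped, with a log2 fold change of -0.11 (adjusted p = 0.531 by limma) that turned to 0.06 after the correction.

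CHGB, the chromogranin B gene (ENSG00000089199.5, hg19 chromosome 20, 5892076 to 5906007), had 9.36, 7.49 and 8.97 FPKM in DA+ cells, against 8.23, 5.64 and 6.23 FPKM in DA- cells. DA- replicate 1 lay within the DA+ range. The log2 fold change of CHGB was 0.35 (SE 0.14, unadjusted p = 0.0364, adjusted p = 0.138 by limma) as deposited and 0.34 (SE 0.14, adjusted p = 0.271 by limma) after the correction. SCG3, the secretogranin III gene, whose product sorts granins into granules, had 2.59, 2.13 and 2.66 FPKM in DA+ cells, against 2.18, 1.4 and 1.43 FPKM in DA- cells. Again DA- replicate 1 overlapped the DA+ values, with a fitted log2 change of 0.46 (SE 0.16, adjusted p = 0.117 by limma) and of 0.12 after the correction.

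SNAP25 (ENSG00000132639.8, hg19 chromosome 20, 10199478 to 10288066), a membrane fusion protein of exocytosis, had 13.4, 13.2 and 16.6 FPKM in DA+ cells, against 11.2, 10.8 and 10.0 FPKM in DA- cells. All DA+ values were higher, with a fitted log2 change of 0.40 (SE 0.11, unadjusted p = 0.00403, adjusted p = 0.11 by limma) and of 0.05 (SE 0.06, adjusted p = 0.712 by limma) after the correction. The vesicle protein gene SYP averaged 2.35 ± 0.202 FPKM in DA+ cells and 2.27 ± 0.0225 FPKM in DA- cells, with a fitted log2 change of 0.04 that median-of-ratios scaling turned to -0.04.

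Among the neuronal growth and RNA-binding genes, STMN2 (ENSG00000104435.9, hg19 chromosome 8, 80523049 to 80578410), a microtubule regulator of growing axons, had 31.5, 32.7 and 41.6 FPKM in DA+ cells, against 26.3, 25.1 and 23.6 FPKM in DA- cells. The groups did not overlap. It had the smallest unadjusted p of the set (0.00164), with a fitted log2 change of 0.48 (SE 0.11, adjusted p = 0.11 by limma) and of 0.18 (SE 0.06, adjusted p = 0.212 by limma) after the correction. GAP43, the growth cone protein gene, had 16, 15.8 and 17.2 FPKM in DA+ cells, against 15.4, 15.2 and 17.6 FPKM in DA- cells. Those values overlapped, with a fitted log2 change of 0.02 (95% interval -0.18 to 0.22) that turned to -0.07 after median-of-ratios scaling and to -0.14 after the GC and length correction. The neuronal RNA-binding protein genes ELAVL3 and ELAVL4 averaged 4.50 ± 0.417 and 2.80 ± 0.586 FPKM in DA+ cells and 3.97 ± 0.504 and 2.13 ± 0.606 FPKM in DA- cells. On the log2 scale ELAVL3 stood at 0.16 and ELAVL4 at 0.34 as deposited, and at 0.28 and -0.10 after the correction.

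**Figure D3:**
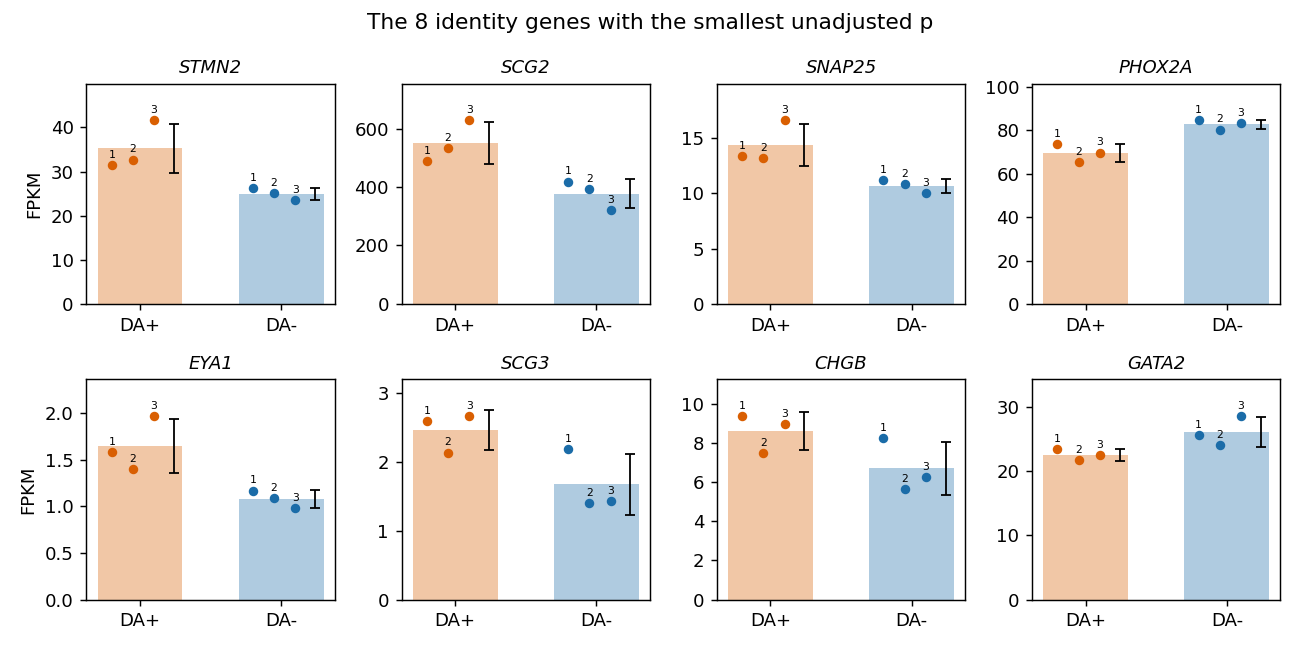
FPKM in each sample (points, numbered by replicate), group mean (bar) and SD (error bar, n = 3) of the 8 identity genes with the smallest unadjusted p. The groups separate in STMN2, SCG2, SNAP25, PHOX2A, EYA1 and GATA2 and overlap in SCG3 and CHGB, and none of the 8 passed the adjusted threshold.

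Within a library, SCG2 was 9.11, 13.2 and 14.5 times as high as CHGA in DA+ cells and 7.87, 9.09 and 6.30 times as high in DA- cells. CHGA was 5.72, 5.39 and 4.82 times as high as CHGB in DA+ cells and 6.46, 7.65 and 8.21 times as high in DA- cells. Neither ratio overlapped between the groups. Both were chosen after the values were seen, and the genes differ in GC content (43.0% in SCG2, 62.4% in CHGA and 52.3% in CHGB).

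The change of an identity gene moved with the GC content of its transcript. Across the 26 genes the log2 fold change and GC content had a Pearson correlation of -0.82 (Spearman -0.80), and across all 11579 tested genes with a GC content it was -0.75. These genes share the same 6 libraries, so the correlation describes those libraries. All 13 identity genes below the set's median GC content of 53.0% had a higher mean in DA+ cells, with a median log2 fold change of 0.34, whereas 6 of the 13 at or above it did, with a median of -0.02. SATB1, which passed the filter only through its DA+ samples, is among the 13 with lower GC content. The slope differed between libraries. Per 10 points of GC content, the deviation of a library from the gene means was -0.03, -0.06 and -0.26 log2 units in DA+ replicates 1, 2 and 3, and 0.02, 0.11 and 0.22 in DA- replicates 1, 2 and 3. The mean slopes were -0.116 ± 0.122 in DA+ and 0.116 ± 0.0986 in DA- cells (n = 3 each; a two-sided exact permutation test gave p = 0.1, which no split of 3 against 3 can go below). GC dependence and treatment cannot be told apart here, since the slopes of the groups do not overlap.

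After the GC and length correction the medians of the lower and upper GC identity genes were 0.06 and 0.03, the correlation was 0.04, and the median of all 26 was 0.05. The correction takes out the trend with GC content over all tested genes. A correlation near 0 and similar medians therefore follow from the procedure and are not a result about these genes. None passed the adjusted threshold (limma, smallest adjusted p = 0.156), against a background of 0.225% (0.19% higher, 0.0345% lower). At an unadjusted p under 0.05 lay 5, all higher, against a background of 16.8% (8.37% higher, 8.45% lower): SCG2 (0.24), TBX2 (0.24), STMN2 (0.18), ELAVL3 (0.28) and CHGB (0.34). The direction was the same before and after the correction in 20 of 26 genes, 15 higher and 5 lower, and turned in 6.

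**Figure D4:**
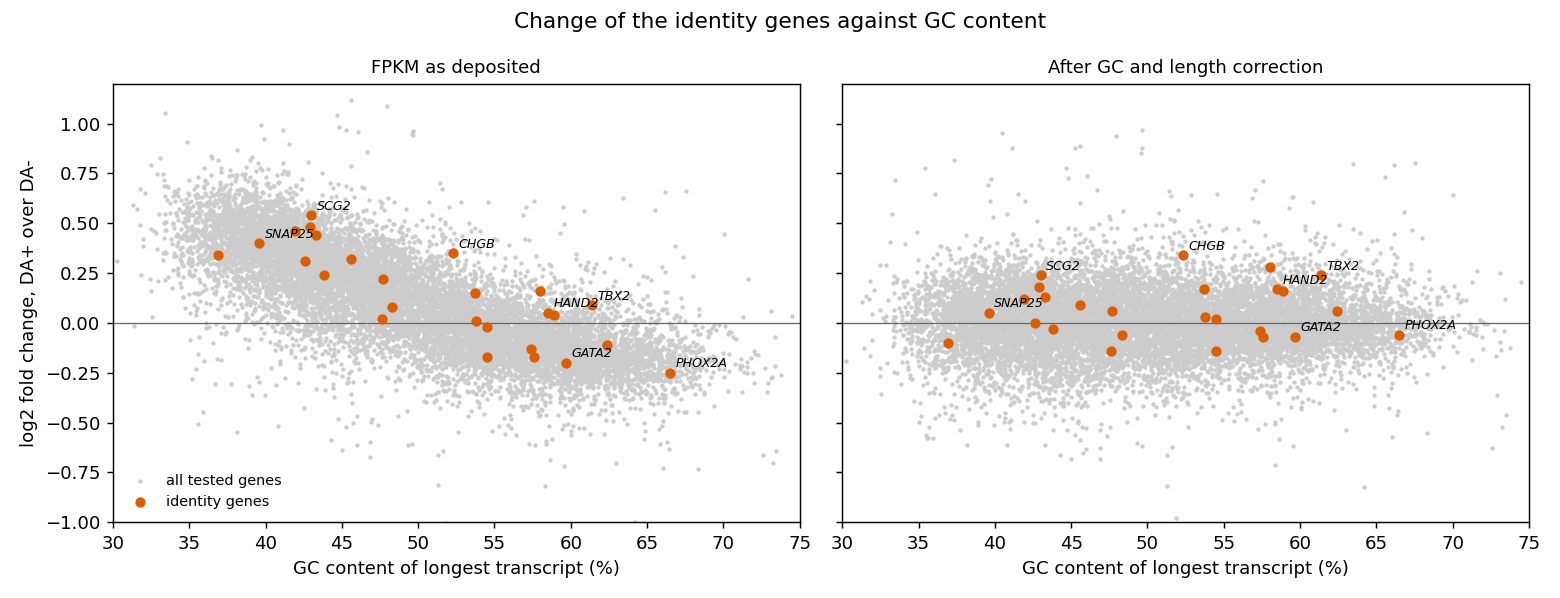
log2 fold change (DA+ over DA-) against GC content of the longest transcript for all tested genes (grey) and the 26 identity genes (orange), as deposited (left) and after correction for GC content and length (right). Genes beyond the axes are not drawn. The orange points slope down on the left, from SCG2 and SNAP25 to PHOX2A (correlation -0.82). They lie flat on the right (0.04), where the correction itself has removed the trend with GC content.

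Neighbouring genes could alter some values in either direction, since no source used here gives the strand setting of the counting or its treatment of overlaps. In the deposited coordinates 14 of the 29 identity genes overlapped another listed gene. Shared bases are counted over whole gene spans, introns included, so they need not lie in exons. HAND2 shares 2960 bases with HAND2-AS1, at 10.6 FPKM in DA+ and 8.82 FPKM in DA- cells, and TBX2 lies across an antisense gene at 12.7 FPKM in DA+ and 13.0 FPKM in DA- cells. SATB1 shares 99431 bases with TBC1D5, whose level was higher than its own, at 5.48 FPKM in DA+ and 4.44 FPKM in DA- cells. LMO3 shares 60887 bases with MGST1, at 1.49 FPKM in DA+ and 1.32 FPKM in DA- cells.

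A further list of 37 sympathetic neuroblast genes, written for the same state, was used to check the label. It had 36 genes in the table and 28 tested. UCHL1, a neuronal ubiquitin hydrolase gene, averaged 308.1 ± 21.7 FPKM in DA+ cells and 321.3 ± 7.20 FPKM in DA- cells. TUBB3, the neuronal tubulin gene, which is listed under 2 identifiers, averaged 223.6 ± 16.9 FPKM in DA+ cells and 257.1 ± 10.5 FPKM in DA- cells in its higher entry. DBH, which turns dopamine into noradrenaline, averaged 20.2 ± 3.42 FPKM in DA+ cells and 24.1 ± 1.43 FPKM in DA- cells. Other defining genes were near 0: MYCN averaged 0.167 ± 0.0673 FPKM in DA+ cells and 0.120 ± 0.117 FPKM in DA- cells, and the vesicular transporter gene SLC18A2 averaged 0.0156 ± 0.00613 FPKM in DA+ cells and 0.00723 ± 0.00632 FPKM in DA- cells. TH was not analysed here. CYB561, an electron carrier of granules, averaged 27.5 ± 1.76 FPKM in DA+ and 28.4 ± 1.53 FPKM in DA- cells, and the neuropeptide gene NPY 25.8 ± 2.04 FPKM in DA+ and 25.8 ± 1.44 FPKM in DA- cells.

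No gene of the 28 reached the adjusted threshold in limma. At an unadjusted p under 0.05 lay 7 (25.0%), 4 higher and 3 lower, against 32.5% of all tested genes (24.4% higher, 8.05% lower), and their median log2 fold change was 0.01. After the correction, which covered 27 of the 28, 3 were higher and 1 lower at such a p, with a median of 0.03. The background was then 16.8% of all tested genes (8.37% higher, 8.45% lower). The smallest p belonged to NEFM, a neurofilament gene (7.75 ± 1.12 FPKM in DA+ and 5.48 ± 0.537 FPKM in DA- cells, log2 fold change 0.46, adjusted p = 0.11 by limma), and it stood at 0.49 after the GC and length correction. The neuroblast factor gene SOX4 averaged 11.5 ± 1.2 FPKM in DA+ and 8.56 ± 1.23 FPKM in DA- cells (log2 fold change 0.41, and 0.35 after the correction). GCH1, which makes the cofactor of catecholamine synthesis, averaged 3.0 ± 0.533 FPKM in DA+ and 2.02 ± 0.522 FPKM in DA- cells. STX1A, the syntaxin gene that partners SNAP25, averaged 8.45 ± 0.449 FPKM in DA+ and 11.0 ± 1.26 FPKM in DA- cells (log2 fold change -0.36, adjusted p = 0.11 by limma, and -0.22 after the correction).

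Several mesenchymal markers were abundant in the same samples. All 22 were in the table and 21 were tested. COL1A2, a collagen gene, lay below the filter at 0.0597 ± 0.0196 FPKM in DA+ and 0.0961 ± 0.0145 FPKM in DA- cells. VIM, the vimentin gene, averaged 844.9 ± 22.3 FPKM in DA+ and 903.0 ± 56.5 FPKM in DA- cells, COL1A1 averaged 317.9 ± 57.7 FPKM in DA+ and 355.1 ± 24.8 FPKM in DA- cells, and COL3A1 averaged 390.0 ± 21.9 FPKM in DA+ and 349.2 ± 35.5 FPKM in DA- cells. PRRX1, a factor that can impose the mesenchymal state, averaged 41.4 ± 4.36 FPKM in DA+ and 33.3 ± 7.82 FPKM in DA- cells. The summed level of the mesenchymal markers ran from 2548 to 2621 FPKM in DA+ and from 2508 to 2795 FPKM in DA- cells, and that of the identity genes from 1005 to 1152 FPKM in DA+ and from 842.2 to 935.3 FPKM in DA- cells. Markers of both states thus stood side by side in each of the 6 bulk samples. SCG2 alone averaged 549.9 ± 71.5 FPKM in DA+ and 377.7 ± 49.8 FPKM in DA- cells. Most of the gap between the identity gene sums therefore lies in that 1 gene, and the sums do not describe the set as a whole.

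No mesenchymal marker of the 21 reached the adjusted threshold in limma. At an unadjusted p under 0.05 lay 4 (19.0%), 3 higher and 1 lower, against 32.5% of all tested genes (24.4% higher, 8.05% lower). The median log2 fold change was 0.04. After the GC and length correction 0 of the 21 were higher and 6 lower at such a p (WWTR1, FOSL1, NOTCH2, VIM, FN1 and CD44). The background was then 16.8% of all tested genes (8.37% higher, 8.45% lower). The corrected median was -0.06, and the smallest adjusted p was 0.0892 by limma. VIM then stood at -0.28 and WWTR1, a Hippo pathway coactivator gene, at -0.36. FOSL1, an AP-1 factor gene, averaged 78.1 ± 6.11 FPKM in DA+ and 116.2 ± 18.1 FPKM in DA- cells, without overlap (log2 fold change -0.56, adjusted p = 0.11 by limma, and -0.43 after the correction). SNAI2, an epithelial-mesenchymal transition factor gene, averaged 22.7 ± 2.16 FPKM in DA+ and 16.4 ± 1.11 FPKM in DA- cells (log2 fold change 0.46, and 0.11 after the correction). YAP1, a Hippo pathway coactivator gene, and NT5E, the CD73 gene, averaged 8.87 ± 1.24 and 191.5 ± 31.3 FPKM in DA+ cells and 6.69 ± 1.27 and 153.2 ± 22.1 FPKM in DA- cells, and SPARC, a matrix protein gene, 249.0 ± 15.6 FPKM in DA+ and 242.1 ± 17.2 FPKM in DA- cells. The part of cell composition in the identity gene values was not tested. Of 9 Schwann and melanocyte lineage markers, 7 were in the table, SOX10 and CDH19 were not analysed here, and the summed level was 2.3 to 2.7 FPKM in DA+ and 1.92 to 2.75 FPKM in DA- cells. S100B, PMEL and MITF each averaged under 0.5 FPKM in both groups.

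**Figure D5:**
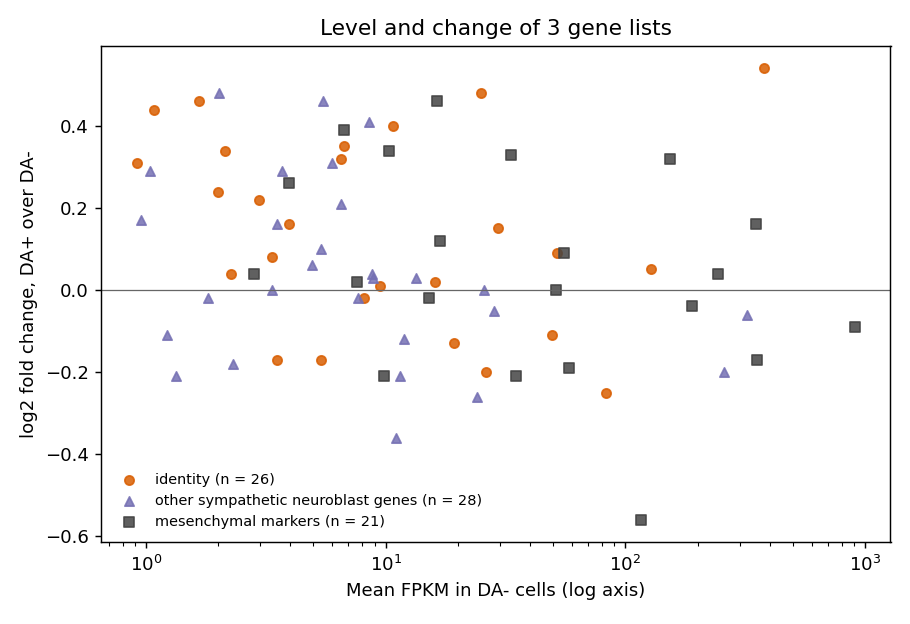
log2 fold change (DA+ over DA-) against the DA- mean FPKM (log axis) for the tested genes of 3 lists: 26 identity genes (circles), 28 other sympathetic neuroblast genes (triangles) and 21 mesenchymal markers (squares). The lists overlap in level and change, with SCG2 the highest circle at 0.54 and FOSL1 the lowest square at -0.56.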

How the data were processed

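RNA of 6 SK-N-SH samples was measured from rRNA-depleted, stranded total RNA libraries, per the labels' protocols. The values the authors deposited are FPKM, in a single table that lists 26789 genes. The build hg19 and the programs HTSeq 0.11.2, STAR 2.7.1a, DESeq2 1.40.2 and FastQC 0.11.9 are named, without roles, per the submitters' processing notes. No source used here gives the annotation, strand setting or FPKM method. FPKM divides by the library total, so abundant genes move all others, and a count model was not used. Such libraries also hold unspliced RNA.

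Totals were recovered from the steps between low values of 2797 pseudogenes of 150 to 1500 bases, taken as single exons. With them, 92.28 to 93.84% of checked values gave a whole number of fragments, to within 0.03.

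Values were analysed as log2(FPKM + 0.5), which understates changes of low genes, for genes with a mean of 1 FPKM or more, with limma 3.58.1 in R 4.3.3 (intensity trend, two-sided, Benjamini-Hochberg, threshold 0.05). On simulated data for this comparison (11791 genes), limma recovered 59.7% of 1.5-fold changes and 92.5% of 2-fold changes. The changed genes were drawn only from those above a set level, so low genes were never among them. Noise was drawn independently for each gene, with no shared library trend. Recovery was not broken down by expression level or GC content. These rates are therefore no measure of power for the identity genes, several of them low, in libraries that differed in GC slope. Samples with the same replicate number did not deviate together (correlations -0.20, 0.28 and -0.37), so no block was used. For the GC and length correction, the trend of a library's deviations with GC content and log2 transcript length was removed by loess (span 0.5), using the longest GENCODE transcript (GRCh38, matched by identifier, 98.2% of tested genes). Because the GC slopes of the groups did not overlap, this can remove part of a real difference.

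The genes and lists were chosen with earlier results of these data known. Values per sample are given for genes among the 10 highest in DA- cells or the 8 with the smallest p, and from each further list up to 4 genes by level and 4 by p, with defining markers added. Some genes of the further lists are not reported here. Alternatives were 2 pseudocounts, 2 filters, 2 scalings, quality weights, a replicate block, the correction with and without the block, and leaving out samples.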

Additional observations from a re-analysis of the deposited data

How the results depend on the processing

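The count of 12 called genes was 6 with no filter on low values, 27 after quantile normalization (18 higher), 2706 with sample quality weights (2056 higher), 26 after the GC and length correction, 7 without both replicates numbered 3, and 3 to 2177 on leaving out 1 sample (2177 without DA- replicate 1, 3 without DA- replicate 2, 6 without DA- replicate 3, 6 without DA+ replicate 1, 7 without DA+ replicate 3). The cause was not tested. With the replicate block it was 3, and 8 with the block and the correction. The replicate numbers share only a number, and the block called none of the identity genes. The count of 0 called identity genes was 7 with sample quality weights (STMN2, SCG2, SNAP25, SCG3, PHOX2A, CHGB and EYA1) and 0 to 6 on leaving out 1 sample, 6 without DA- replicate 1 (SCG2, STMN2, SCG3, CHGB, SNAP25 and ISL1), and 0 in each other alternative. The 7 and the 6, each of 26, stand beside 2706 and 2177 of 11791 tested genes called in the same fits. They are not a result about the identity genes. At an unadjusted p under 0.05 the genes higher in DA+ cells were 2880 of 3829 as deposited, 1894 of 3650 after median-of-ratios scaling and 1708 of 3438 after quantile normalization. For the identity genes these were 6 of 8, 5 of 8 and 3 of 6, and 4 had such a p without DA+ replicate 3, 5 without DA- replicate 3 and 5 without DA+ replicate 1. The identity genes' median of 0.12 lay between 0.03 and 0.20 in all alternatives, and that of all genes was 0.00 after median-of-ratios scaling and -0.01 after quantile normalization. The GC slope difference of -0.23 lay between -0.28 and -0.11.

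Of the 26 tested identity genes 17 kept their direction, at 2 decimals, in each alternative run, and 9 turned. After the GC and length correction, with or without the block, CHGA stood at 0.06, ELAVL4 at -0.10, GAP43 at -0.14, KLF7 at -0.03, RET at 0.02 and TFAP2B at -0.06. After median-of-ratios scaling GAP43 stood at -0.07, HAND2 at -0.04, SIX3 at -0.08 and SYP at -0.04. After quantile normalization GAP43 stood at -0.01, SIX3 at -0.08, SYP at -0.15 and TFAP2B at -0.09, and with quality weights CHGA at 0.01. On leaving out 1 sample GAP43 ran from -0.02 to 0.09, HAND2 from -0.03 to 0.11, RET from -0.09 to 0.07, SIX3 from -0.03 to 0.04, SYP from -0.02 to 0.08 and TFAP2B from -0.04 to 0.19. DACH1, ALK and LMO3 lay below the filter and were fitted only with no filter on low values.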
